A study of Mus musculus with 43 samples.

Results

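The genes described here build mucin-type O-glycans or add sialic acid to glycans. They are the 44 genes of a CRISPR library against 2078 metabolic genes whose symbols begin with *Galnt*, *C1galt1*, *Gcnt*, *St3gal*, *St6gal* or *St8sia*, together with *Gne*, *Nans*, *Nanp*, *Cmas* and *Slc35a1*. They were chosen by symbol alone, and 220 of the 10640 sgRNAs in the library, 5 per gene, target them. By symbol, 17 of the 44 genes were grouped under chain initiation (*Galnt*), 2 under core 1 and 4 under branching (*Gcnt*). Another 5 were grouped under sialic acid supply, and 16 are sialyltransferases. These roles follow the symbols, and not every gene of a role need act in that step.

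Mucin-type O-glycosylation starts in the Golgi when a GALNT enzyme links N-acetylgalactosamine (GalNAc) to a serine or threonine of a protein. The core 1 synthase C1GALT1, which needs the chaperone encoded by *C1galt1c1*, then adds galactose, GCNT enzymes branch the chain, and sialyltransferases cap it with sialic acid. Sialic acid is made from UDP-N-acetylglucosamine (UDP-GlcNAc) by GNE, NANS and NANP, activated in the nucleus by CMAS and carried into the Golgi by SLC35A1. On T cells, these chains sit on abundant mucin-like surface proteins such as CD43, and the loss of their sialic acid caps is a known mark of T cell activation.

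To learn which metabolic genes shape the fitness of transferred T cells, sgRNA abundance was measured by sequencing the integrated guides in transferred OT-I T cells. These are mouse CD8+ T cells from OT-I:Rosa26-Cas9 animals, with a T cell receptor for ovalbumin and Cas9 in every cell. A lentiviral vector brought in the sgRNA and the surface marker CD90.1, and CD90.1+ cells were sorted for genomic DNA. Cells were transferred (adoptive cell transfer, ACT) into Rosa26-Cas9 mice carrying an orthotopic tumour of KPC_OVA, a mouse pancreatic cancer line that expresses ovalbumin.

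The reference, T0, consisted of 3 libraries of transduced cells taken on the day of transfer (day 0). The other groups were sorted on day 7 from primary tumour, lung, liver, peritoneal metastases, spleen, draining lymph nodes or nondraining lymph nodes. Mice received 10 mg/kg of anti-PD-1 or of rat IgG from the day of ACT. Every group had 3 libraries except liver IgG and peritoneal metastases IgG, with 2 each, and liver anti-PD-1, with 1. The authors excluded 2 of the 43 samples, 1 of peritoneal metastases IgG and 1 of liver anti-PD-1. Each liver group had 2 labelled samples before this exclusion. The second library of peritoneal metastases anti-PD-1 is assigned to the spleen by its tissue field, and it was placed by its title. The sample titles number the libraries of a group as biological replicates, but do not say whether each came from 1 animal or from a pool. The study names many more mice per treatment than a group has libraries, and 3 independent sequencing runs. It does not match mice to libraries. P-values therefore measure the spread between these libraries, and the technical part of that spread is unknown. All T cells carried Cas9 and an sgRNA, no untransduced cells were measured, and DNA values cannot show whether the sorted cells were T cells.

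A gene value is the mean of log2(signal + 1) over its 5 sgRNAs minus the same mean over the 250 nontargeting sgRNAs of that library, so that 0 is the level of a control sgRNA. A gene was called depleted or enriched when its mean differed from that of T0 at an adjusted p of at most 0.05 (limma, Benjamini-Hochberg over all 2078 genes). Changes are on this log2 scale, which understates losses of sgRNAs with low signal. Library sums of the signal were 2882460 to 4228880 in T0 and 1788300 to 3590600 in the 26 libraries outside the lymph nodes. For many sgRNAs, more than 1 library of the same replicate number has the identical value, the lowest of that sgRNA among those libraries. From 2.78% to 42.6% of all sgRNAs were at this shared lowest value in the libraries outside the lymph nodes, compared with at most 0.0188% in T0. In the lymph nodes it was 45.4% to 91.6%, and these groups were therefore fitted apart. The read depth is unknown, since the values are no longer counts. All changes against T0 rest on the same 3 T0 libraries.

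**Figure D1:**
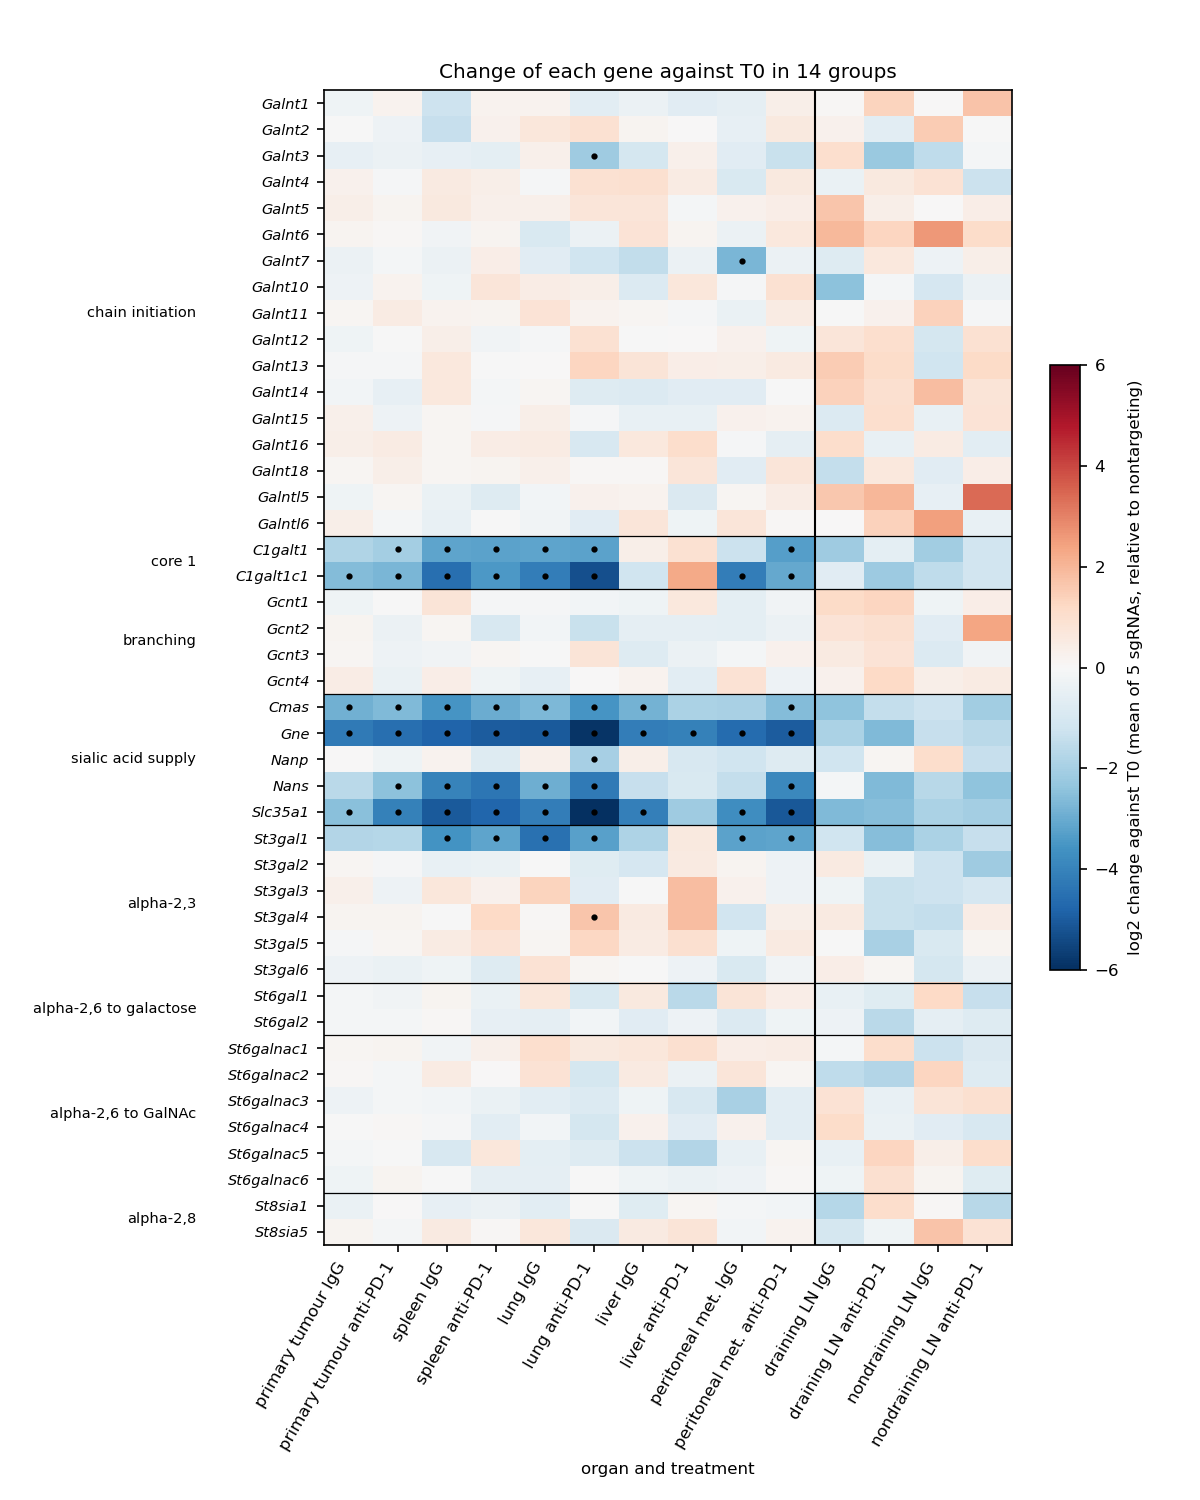
Log2 change against T0 (colour) of each of the 44 genes, arranged by role, in the 14 combinations of organ and treatment; the colour scale gives the mean of 5 sgRNAs relative to nontargeting sgRNAs, and dots mark an adjusted p of at most 0.05. The depleted genes are those of sialic acid supply except *Nanp*, both core 1 genes and *St3gal1*, while most other genes stay near 0.

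Over the 10 organ and treatment groups outside the lymph nodes, combined as the mean of the group means, 7 of the 44 genes were depleted and none was enriched. Across the library, 16.1% of genes were depleted in this comparison and 0.192% were enriched, so the share depleted among the 44 genes was close to that of all genes. The median change was −0.09 for the 44 genes and −0.14 for all genes, and 27 of the 44 were below 0. The depleted genes were *Gne*, *Slc35a1*, *C1galt1c1*, *Cmas*, *Nans*, *St3gal1* and *C1galt1*. By role, 4 of the 5 genes of sialic acid supply, both core 1 genes and 1 of the 6 *St3gal* genes were depleted. No chain-initiating *Galnt* gene, *Gcnt* gene, *St6gal*, *St6galnac* or *St8sia* gene was. For this comparison limma also gave 7 of the 44 genes at an unadjusted p under 0.05, beside 391 of all genes. In each alternative fit that was run, 0 of the 44 genes were enriched.

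Among the genes of sialic acid supply, *Gne*, which encodes the bifunctional enzyme at the entry to sialic acid synthesis, fell most. Its values were −0.41, −0.12 and 0.62 in the T0 libraries, and in the 26 libraries outside the lymph nodes the lowest, median and highest were −6.72, −4.68 and −2.81. Every one of these libraries was below every T0 library. The mean change was −4.73 (SE 0.57, limma adjusted p = 2.18e-08), which placed *Gne* 81st from the lowest of the 2078 genes.

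*Slc35a1*, the transporter that carries CMP-sialic acid into the Golgi, had values of −0.48, −0.37 and 0.54 at T0, and of −6.40, −4.49 and −2.24 as the lowest, median and highest after transfer. Here too all 26 libraries were below every T0 library. The change was −4.18 (SE 0.44, limma adjusted p = 1.22e-09), rank 131 from the lowest. Of the 130 sgRNA values of each gene in these libraries, 64 for *Gne* and 60 for *Slc35a1* were at the shared lowest value, which limits the size of the fall that can be seen.

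*Cmas*, which makes CMP-sialic acid, and *Nans*, which condenses the sugar precursor into sialic acid phosphate, fell by less. *Cmas* was at 0.04, 0.43 and 0.49 in T0 and at −4.22, −2.50 and −0.77 (lowest, median and highest) after transfer, a change of −2.76 (SE 0.52, limma adjusted p = 6.18e-05). *Nans* was at 0.19, 0.27 and 0.96 in T0 and at −4.91, −2.31 and −0.46 after transfer, a change of −2.73 (SE 0.52, limma adjusted p = 7.63e-05). For each of these genes the 26 libraries and the T0 libraries did not overlap.

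*Nanp*, the phosphatase that acts between NANS and CMAS, was not depleted in the mean. It was at 0.05, 0.33 and 0.35 in T0 and at −3.51, −0.03 and 1.38 (lowest, median and highest) after transfer. The T0 values lay within the range of the others, and the change was −0.50 (SE 0.52, limma adjusted p = 0.975).

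The core 1 genes were lower in most libraries but not in all. *C1galt1c1*, which encodes the chaperone also called COSMC, was at −0.64, −0.31 and −0.18 in T0 and at −6.19, −3.34 and 1.91 after transfer, with 25 of 26 libraries below every T0 library. Its change was −2.88 (SE 0.60, limma adjusted p = 0.000273). *C1galt1*, the synthase, was at 0.21, 0.27 and 0.38 in T0 and at −4.99, −2.18 and 1.33 after transfer. For the synthase, 24 of 26 libraries were below every T0 library, at a change of −1.996 (SE 0.53, limma adjusted p = 0.0044). The libraries that were not below T0 all came from the liver.

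Of the sialyltransferases, only *St3gal1*, which caps the galactose of core 1, was depleted. It was at −0.20, 0.18 and 0.20 in T0 and at −5.69, −2.76 and 0.65 after transfer, and 25 of 26 libraries were below every T0 library, the exception being the liver anti-PD-1 library. The change was −2.57 (SE 0.68, limma adjusted p = 0.00418). With every library of replicate number 2 left out, the adjusted p was 0.0872 at a change of −2.09. With the median in place of the mean of the sgRNAs, centred on the nontargeting median, *Gne*, *Slc35a1* and *C1galt1c1* alone were called, and adjusted p-values were 0.0822 for *Cmas*, 0.115 for *Nans*, 0.217 for *C1galt1* and 0.378 for *St3gal1*.

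**Figure D2:**
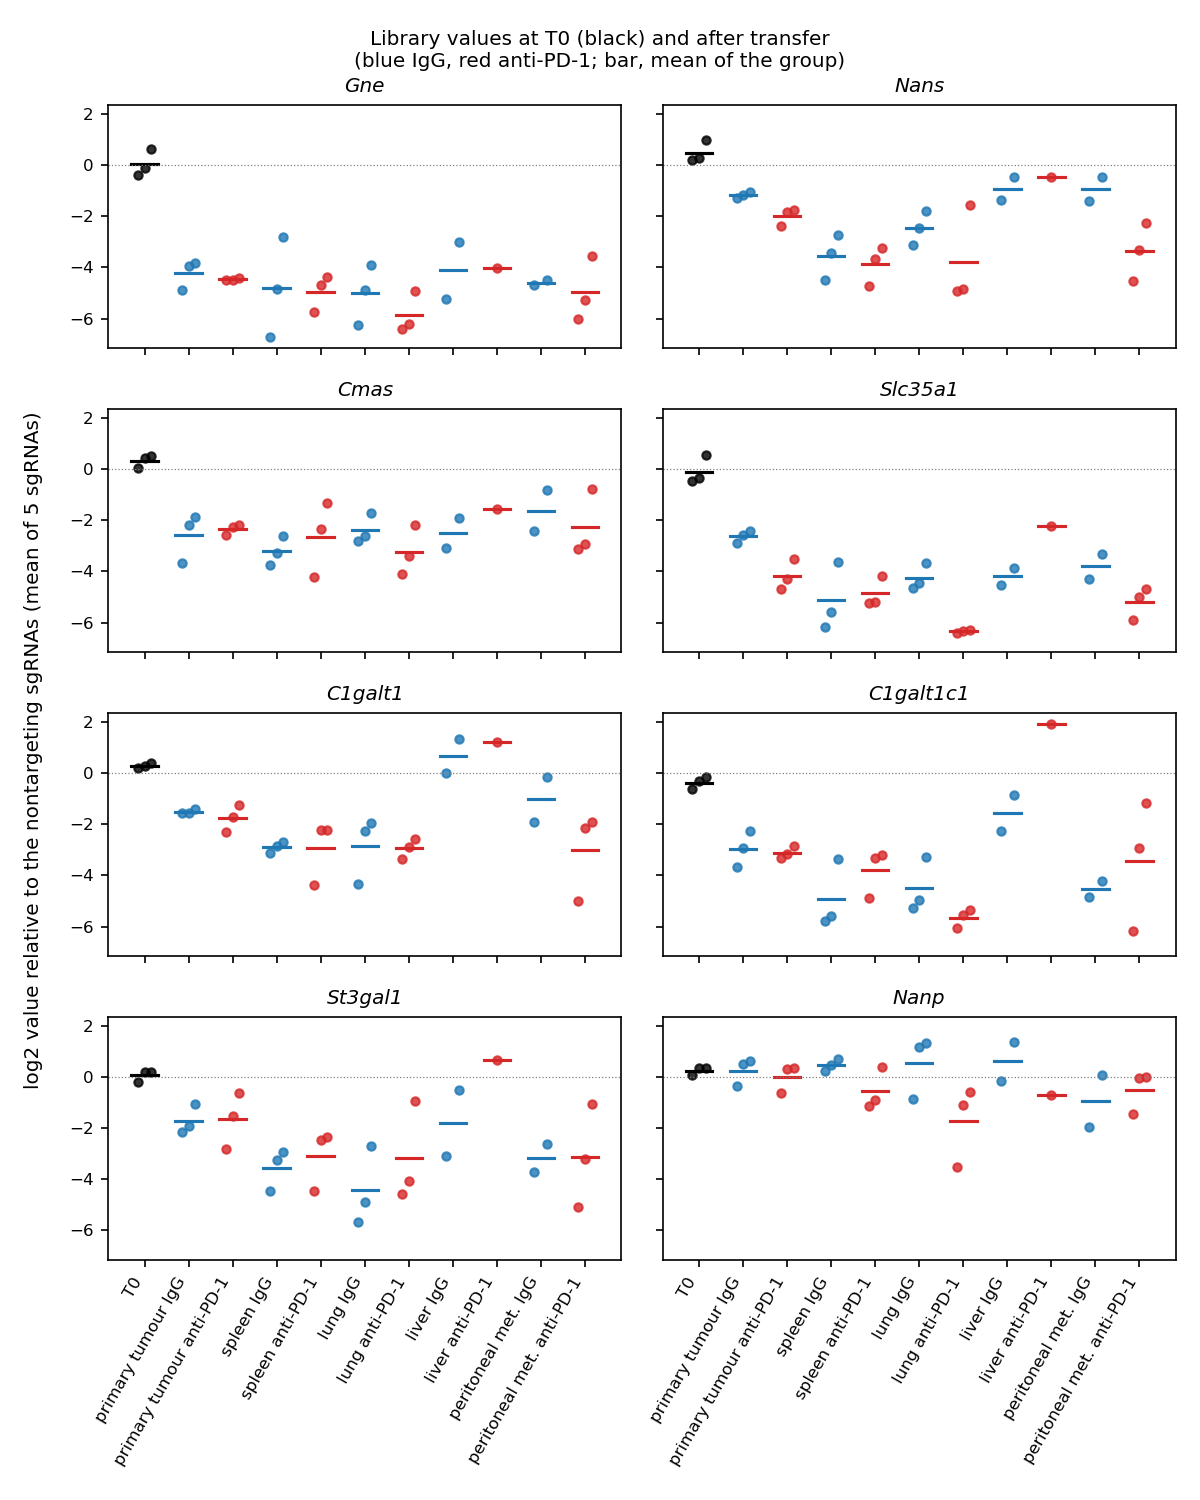
Value of each depleted gene and of *Nanp* in every library, in log2 relative to the nontargeting sgRNAs (vertical axis), by organ and treatment (horizontal axis), with T0 in black, IgG in blue, anti-PD-1 in red and a bar for the group mean. *Gne*, *Slc35a1*, *Nans* and *Cmas* are below T0 in all 26 libraries, while *C1galt1* and *C1galt1c1* reach 1.33 and 1.91 in the liver.

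The 37 genes that were not called had changes from −0.72 for *Galnt7* to 0.48 for *St3gal4* (median −0.02, SE 0.37 to 0.65), with a lowest limma adjusted p of 0.647. The 17 genes grouped under chain initiation ranged from −0.72 to 0.38 with a median of 0.04. *Gcnt1*, the core 2 branching enzyme, had a change of −0.02, and *St6gal1*, which adds sialic acid to N-glycans, had one of −0.06. The 5 highest values were 0.48 for *St3gal4*, 0.45 for *St3gal5*, 0.44 for *St6galnac1*, 0.38 for *Galnt13* and 0.37 for *Galnt5*, and all 5 were below 0 when the deposited values were used without centring, which moved the median of all genes to −1.14. *St8sia4*, a polysialyltransferase of lymphocytes, is not in the library.

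The sgRNAs of a depleted gene fell together, with 1 exception. Of the 35 sgRNAs of the 7 genes, 34 were below 0 and below −1 in the mean over the 10 groups, with a median of −3.06. Among the 185 sgRNAs of the other 37 genes, 46.5% were below 0 and 9.19% below −1, compared with 57.6% and 24.0% of all gene-targeting sgRNAs and with 44.4% and 10% of the nontargeting sgRNAs. The genes were split by calls made on these same sgRNAs, so low values in the first set and few in the second partly follow from the split. The set of all gene-targeting sgRNAs still holds those of the depleted genes of the library. The exception was an sgRNA of *Cmas*, s_00667. It stood at 1.51, whereas the other 4 sgRNAs of the gene were at −2.17, −3.82, −4.62 and −4.70. In the deposited signal it was at 285, 785 and 832 in T0 and ranged from 228 to 5468 (median 696) outside the lymph nodes, with 11 of 26 libraries above every T0 library. Without it, the change of *Cmas* was −3.83 (limma adjusted p = 2.33e-06).

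Genes that lie just upstream, or that feed the same sugars, were read from a list of 25 pathway genes, 23 of them in the library. The list was drawn up with earlier results of these data known. Of the 23, 5 were depleted in the mean over the 10 groups and none was enriched, beside 16.1% depleted and 0.192% enriched over all genes. The median change of the 23 genes was −0.06. *Gfpt1*, *Gnpnat1*, *Pgm3* and *Uap1* encode the enzymes of the hexosamine pathway to UDP-GlcNAc, and their changes were −5.20, −3.04, −3.93 and −3.41. *Slc35a2*, the Golgi transporter of UDP-galactose, changed by −4.92. The other 18 ranged from −0.31 to 0.93. Among them were the salvage kinase *Nagk* at −0.06, *Cmah*, which hydroxylates CMP-sialic acid, at −0.25, and the sialidases *Neu1*, *Neu2*, *Neu3* and *Neu4* at 0.02, −0.02, 0.12 and 0.17.

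Next, each organ and treatment was compared with T0 on its own. In the primary tumour, 4 genes were depleted under IgG and 6 under anti-PD-1, compared with 14.3% and 14.4% of all genes. In the spleen it was 7 under IgG and 7 under anti-PD-1 (13.6% and 14% of all genes). In the lung it was 7 under IgG and 9 under anti-PD-1 (16.2% and 17.2% of all genes).

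The liver had the fewest depleted genes, 3 under IgG and 1 under anti-PD-1, compared with 13.1% and 9.58% of all genes. In peritoneal metastases it was 5 under IgG and 7 under anti-PD-1 (13.7% and 15.3% of all genes). A group of 1 or 2 libraries has a larger error than a group of 3, and the liver anti-PD-1 library was taken to vary like the libraries of the other groups. Summed over the 10 groups there were 56 depletions and 1 enrichment among 440 pairs of gene and group, beside 14.1% depleted and 0.419% enriched over all genes.

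*Gne* was depleted in all 10 groups, *Slc35a1* in 9, *Cmas* and *C1galt1c1* in 8 each, and *Nans*, *C1galt1* and *St3gal1* in 6 each. The missing call of *Slc35a1* was liver anti-PD-1, at −2.24 in its 1 library. Leaving out each library of the group or of T0 in turn left 41 of the 57 calls in place. All 9 calls of *Slc35a1* were kept, as were 9 of 10 for *Gne*, 6 of 8 for *Cmas*, 5 of 8 for *C1galt1c1*, 5 of 6 for *C1galt1* and for *Nans*, and 2 of 6 for *St3gal1*. The call of *Gne* that was lost was that in liver IgG, where the adjusted p was 0.0607 without replicate 3.

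The lost calls of the other depleted genes lay mostly in the primary tumour and in peritoneal metastases. In primary tumour anti-PD-1, *C1galt1* lost its call without replicate 2 or 3 or any T0 library (adjusted p of up to 0.218), *C1galt1c1* without replicate 3 or T0 replicate 3 (up to 0.0524) and *Nans* without replicate 2 or T0 replicate 3 (up to 0.0628). In primary tumour IgG, *C1galt1c1* lost it without replicate 1 or 2 or T0 replicate 2 or 3 (up to 0.134). In liver IgG, *Cmas* lost it without replicate 2 (0.198).

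In peritoneal metastases anti-PD-1, 3 calls rested on replicate 2, the library with the spleen tissue field. Without it the adjusted p was 0.184 for *C1galt1c1*, 0.0565 for *Cmas* and 0.176 for *St3gal1*, and the number of depleted genes in this group went from 7 to 4. Without that library, 7 genes were depleted in the mean over the 10 groups, 4 were called between the organs and 1 between the treatments, the same counts as with it. *St3gal1* also lost its calls in spleen anti-PD-1 and in lung anti-PD-1 without replicate 2 of each group (0.131 and 0.0724). In peritoneal metastases IgG it lost the call without either library of the group or T0 replicate 2 or 3 (up to 0.301).

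Another 3 genes were depleted in 1 group each, and each of these calls rested on single libraries. *Galnt7*, which acts on proteins that already carry GalNAc, changed by −2.74 in peritoneal metastases IgG (limma adjusted p = 0.00522, and 0.0553 without replicate 2 of that group). *Galnt3* changed by −2.15 in lung anti-PD-1 (limma adjusted p = 0.0375), and by −1.02 with an adjusted p of 0.405 without replicate 2. *Nanp* changed by −1.97 in the same group (limma adjusted p = 0.0434), and by −1.08 with an adjusted p of 0.338 without replicate 3. Both calls were also lost without any one of the T0 libraries, and that of *Galnt3* without replicate 3 of its group.

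To ask whether the loss differed between organs, the 5 organs outside the lymph nodes were compared in 1 F-test with both treatments averaged. T0 cancels from the differences tested but enters the estimate of spread. The authors had corrected the values for batches between organs, with settings not given, and the effect of this on differences between organs was not tested. The test called 9 of the 2078 genes, 0.433%, and 4 of the 9 were *C1galt1c1* (limma adjusted p = 0.00100, the lowest p of all genes), *C1galt1* (0.00274, rank 3), *Nans* (0.0144) and *Slc35a1* (0.0207). *St3gal1* had an adjusted p of 0.106, *Gne* of 0.847 and *Cmas* of 0.885. At an unadjusted p under 0.05 there were 7 of the 44 genes and 162 of all genes.

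The core 1 genes were lowest in spleen and lung and highest in the liver. *C1galt1c1* changed by −2.66 in primary tumour, −3.98 in spleen, −4.71 in lung and −3.60 in peritoneal metastases, and by 0.55 in the liver. *C1galt1* changed by −1.92, −3.21, −3.19 and −2.31 in the same organs, and by 0.65 in the liver. Split by treatment, *C1galt1c1* changed by −1.19 in liver IgG and by 2.29 in liver anti-PD-1, and *C1galt1* by 0.37 and 0.93. None of these 4 values passed the test, and the values of *C1galt1* were below 0 in both treatments when the deposited values were used without centring (−0.76 and −0.47), and under IgG without replicate 3 (−0.30).

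Among the genes of sialic acid supply that differed, *Nans* changed by −2.05 in primary tumour, −4.19 in spleen, −3.60 in lung, −1.17 in liver and −2.63 in peritoneal metastases. *Slc35a1* changed by −3.30, −4.89, −5.20, −3.11 and −4.41 in the same order. Both genes were thus lowest in spleen and lung and least low in liver and primary tumour. *St3gal1* changed by −1.74, −3.38, −3.87, −0.63 and −3.20, whereas *Gne* kept to a narrower range, −4.38, −4.90, −5.46, −4.10 and −4.80, and so did *Cmas*, −2.78, −3.25, −3.13, −2.36 and −2.27.

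In the single liver libraries, *C1galt1* was at −0.01 and 1.33 under IgG and at 1.22 under anti-PD-1, whereas the highest library of the other 4 organs was at −0.15. *C1galt1c1* was at −2.26 and −0.87 under IgG and at 1.91 under anti-PD-1. The liver libraries of *C1galt1* thus lay above every library of the other organs, while those of *C1galt1c1* spread widely. All 5 sgRNAs of *C1galt1* were above 0 in the liver (0.14 to 0.996) and between −3.69 and −1.49 in the mean of the other organs. For *C1galt1c1* they ranged from −1.14 to 2.26 in the liver and from −4.16 to −2.31 elsewhere. Both genes were singled out by the mean of these same sgRNAs, so the gap between liver and other organs partly follows from that choice. The sgRNAs also share the same liver libraries and are not replicates.

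The liver was then set against the mean of the other 4 organs, a contrast chosen after the values had been seen. The difference was 4.29 for *C1galt1c1* (SE 0.64, limma adjusted p = 0.000222) and 3.31 for *C1galt1* (SE 0.56, limma adjusted p = 0.0012). These were the largest differences of the 2078 genes and the 2 genes called, 0.0962% of all. The median difference was 0.13 over all genes and 0.18 over the 334 genes depleted in the mean over the 10 groups. *St3gal1*, which acts on core 1, had the third largest difference, 2.42, with an adjusted p of 0.959 that did not pass. *Nans* followed at rank 5 with 1.95 (adjusted p = 0.807). *Slc35a1*, at rank 13, had a difference of 1.34 (SE 0.46, 95% interval 0.40 to 2.27), with an adjusted p of 0.9996 over all genes. For *Gne* the difference was 0.79 (95% interval −0.43 to 2.01) and for *Cmas* 0.50 (−0.62 to 1.61).

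In the liver libraries *Gne* was at −3.01 and −5.21 under IgG and at −4.02 under anti-PD-1, and *Cmas* at −3.09, −1.93 and −1.57. *Slc35a1* was at −4.53, −3.85 and −2.24. These 3 genes were thus below every T0 library in each liver library. The 5 depleted genes of the pathway list also stayed low there against T0. They were at −5.64 (*Gfpt1*), −2.905 (*Gnpnat1*), −3.38 (*Pgm3*), −2.84 (*Uap1*) and −4.45 (*Slc35a2*). Of all sgRNAs, 5.73% to 6.64% were at the shared lowest value in the liver libraries, compared with 2.78% to 4.24% in the primary tumour and 10.5% to 42.6% in the lung, and the part of this spread in the difference between organs was not tested.

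The difference between organs rested on few libraries. Without the only liver anti-PD-1 library, the liver difference of *C1galt1c1* was 2.55 (limma adjusted p = 0.994) and its F-test had an adjusted p of 0.091. Under the same omission *C1galt1* had a difference of 3.03 (adjusted p = 0.0755) and *Nans* an F-test adjusted p of 0.0531. Without liver IgG replicate 3 the difference of *C1galt1* was 2.97 (adjusted p = 0.0542), and without liver IgG replicate 2 the adjusted p of *Nans* was 0.0525. *Slc35a1* lost its call without 5 single libraries, 3 of the primary tumour and 2 of the liver, with adjusted p-values of 0.0548 to 0.0986. In the F-test over 4 organs without the liver, and over IgG or anti-PD-1 libraries alone, no gene of the 44 passed (5, 0 and 0 genes of the library did), with adjusted p-values of 0.0887 and 0.429 for *C1galt1* and of 0.159 and 0.0638 for *C1galt1c1* under IgG and anti-PD-1. Without the liver, the F statistic of *Slc35a1* was 8.14 (adjusted p = 0.0689) in place of 8.32, and that of *Nans* 7.42 (adjusted p = 0.0863) in place of 8.91. For the core 1 genes it was smaller, at 3.27 in place of 11.3 for *C1galt1* and at 4.45 in place of 14.7 for *C1galt1c1*. The F-test without the liver spans fewer differences between organs and fewer libraries, so the 2 statistics of a gene are not on the same scale.

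**Figure D3:**
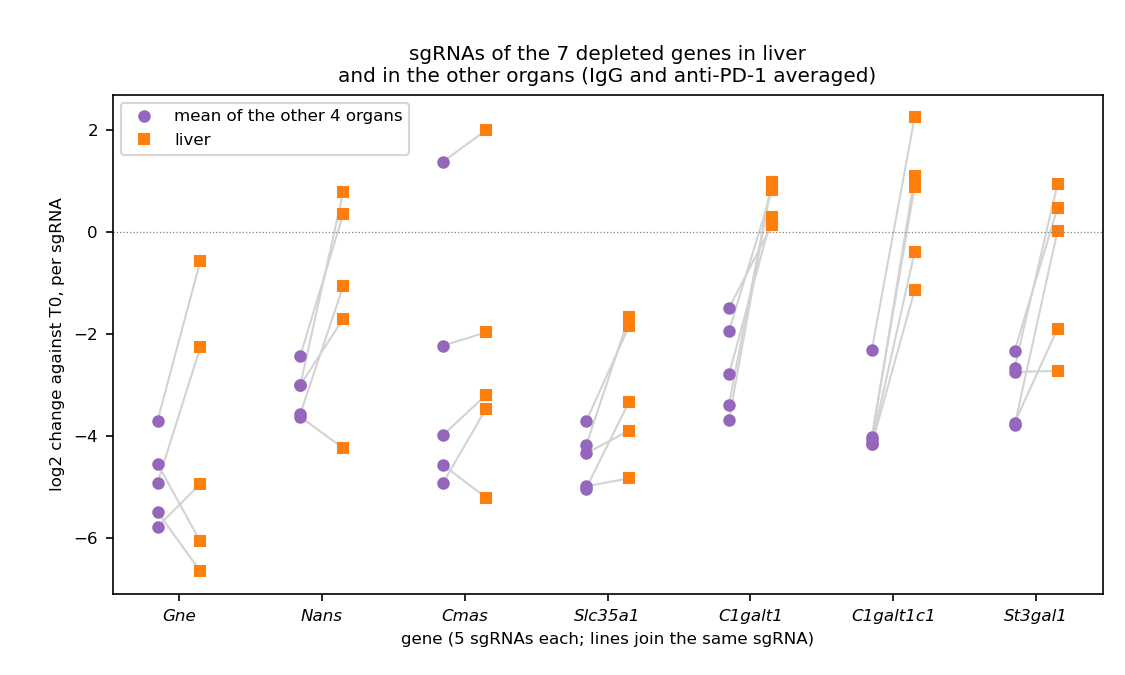
Log2 change against T0 of each of the 5 sgRNAs of the 7 depleted genes (horizontal axis), with the liver in orange and the mean of the other 4 organs in purple, treatments averaged and lines joining the same sgRNA. All 5 sgRNAs of *C1galt1* lie above 0 in the liver and at −1.49 or below elsewhere, all 5 of *Slc35a1* are higher in the liver than elsewhere by 0.16 to 2.52 but stay below 0, and those of *Gne* and *Cmas* differ in both directions.

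The treatments were compared within organs, where T0 cancels from the difference and enters only the estimate of spread. In the mean over the 5 organs, 1 of the 44 genes was called, beside 28 or 1.35% of all genes. This was *St3gal4*, which encodes a sialyltransferase that caps galactose on N-glycans and glycolipids and takes part in the making of selectin ligands. The study chose *St3gal4* among its targets on these samples, so its value here is not independent evidence of its direction. With it, 9 of the 44 genes had an unadjusted p under 0.05, beside 329 of all genes. The other 8 did not pass the adjustment. *St6gal1* was among them, with means of 0.55 under IgG and −0.42 under anti-PD-1 and a difference of −0.97 (limma adjusted p = 0.114).

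*St3gal4* was at 0.32, 0.46 and 0.54 in T0. In the spleen it was at −0.39, 0.79 and 0.86 under IgG and at 0.99, 1.41 and 2.54 under anti-PD-1, and in the lung at 0.14, 0.32 and 0.998 under IgG and at 1.08, 2.34 and 2.89 under anti-PD-1. In peritoneal metastases it was at −0.85 and −0.54 under IgG and at 0.44, 0.92 and 0.995 under anti-PD-1. The anti-PD-1 libraries were above every IgG library in each of these organs.

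In the liver *St3gal4* was at 0.82 and 1.15 under IgG and at 2.30 in the anti-PD-1 library. In the primary tumour the values were 0.54, 0.54 and 0.70 under IgG and 0.39, 0.65 and 0.71 under anti-PD-1, and here the treatments overlapped. The difference in the mean over organs was 1.13 (SE 0.27, limma adjusted p = 0.0261), from a mean of 0.36 under IgG to 1.48 under anti-PD-1. By organ it was −0.01 in primary tumour, 1.23 in spleen, 1.61 in lung, 1.32 in liver and 1.48 in peritoneal metastases, and none of these passed on its own (limma adjusted p = 0.0739 in the lung, the lowest).

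The sgRNAs of *St3gal4* did not move alike between treatments. Their differences were 2.40, 2.18, 1.16, 0.03 and −0.14. The adjusted p ranged from 0.00882 to 0.476 over the alternative fits. It was 0.0516 with the nontargeting median as reference and 0.476 with the lymph nodes in the same fit. It was 0.0536 without primary tumour IgG replicate 3, 0.0673 without peritoneal metastases IgG replicate 3 and 0.062 without liver IgG replicate 3. The difference itself stayed between 0.80 and 1.27 in all of these.

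Against T0, *St3gal4* was enriched in lung anti-PD-1 alone among the 10 groups, with a change of 1.66 (limma adjusted p = 0.0208), where 0.962% of all genes were enriched. That call was lost in 5 of the 6 fits that left out a library of the group or of T0, with an adjusted p of up to 0.127. It was also lost with the nontargeting median as reference, at a change of 0.84 (adjusted p = 0.266).

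**Figure D4:**
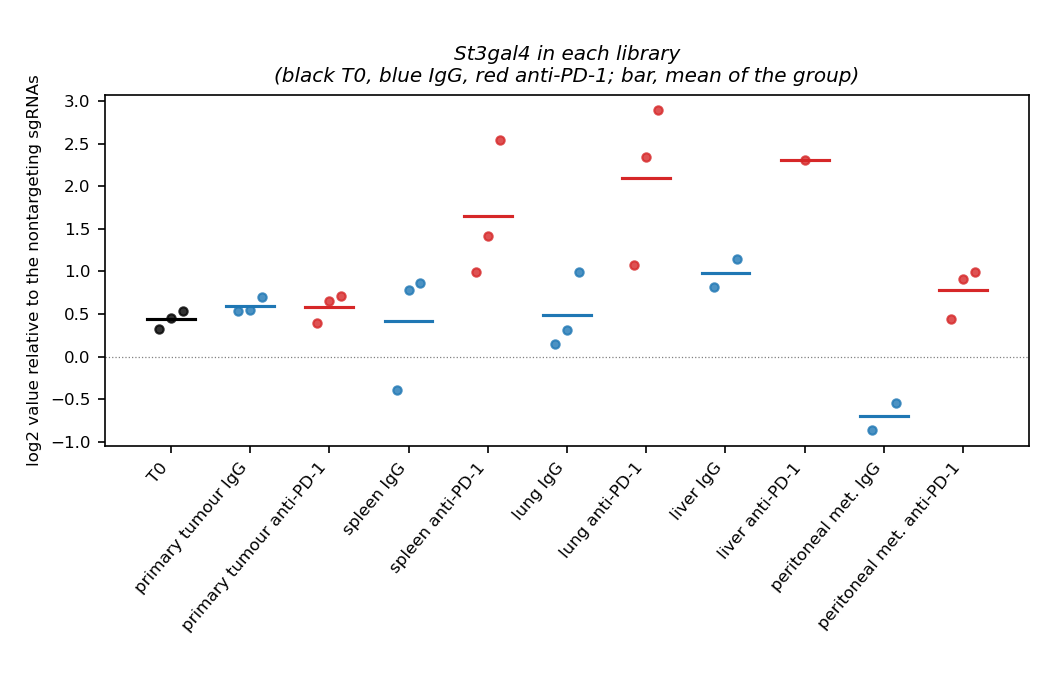
Value of *St3gal4* in each library, in log2 relative to the nontargeting sgRNAs (vertical axis), by organ and treatment (horizontal axis), with T0 in black, IgG in blue, anti-PD-1 in red and a bar for the group mean. The anti-PD-1 libraries lie above the IgG libraries in spleen, lung, liver and peritoneal metastases and overlap with them in the primary tumour.

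In single organs, 1 further difference between treatments passed. *Slc35a1* was at −4.65, −4.45 and −3.69 in lung IgG and at −6.40, −6.32 and −6.30 in lung anti-PD-1, without overlap, a difference of −2.08 (SE 0.58, limma adjusted p = 0.039). In the lung 3.56% of all genes were called between the treatments. In the other organs the difference of *Slc35a1* was −1.54 in primary tumour, 0.27 in spleen, 1.95 in liver and −1.40 in peritoneal metastases, and none of these passed. All 15 sgRNA values of *Slc35a1* were at the shared lowest value in lung anti-PD-1, and 10 of 15 in lung IgG. The call was lost in 7 of 9 alternative fits, with adjusted p-values of up to 0.74, and without lung IgG replicate 1 (0.109) or any library of lung anti-PD-1 (0.0538 to 0.064). It was also lost, at adjusted p-values of 0.0504 to 0.0533, without T0 replicate 1 or 2, any library of primary tumour IgG, or primary tumour anti-PD-1 replicate 2. In primary tumour, spleen, liver and peritoneal metastases limma called 0 genes of the library between treatments. At an unadjusted p under 0.05 there were 1, 5, 3 and 7 of the 44 genes, beside 14, 161, 93 and 107 of all genes.

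In the lymph nodes nothing was called. In draining and nondraining lymph nodes under IgG or anti-PD-1, limma called 0 of the 44 genes and 0 of all genes against T0. At an unadjusted p under 0.05, 4 and 6 of the 44 genes were counted in draining lymph nodes under IgG and anti-PD-1, and 1 and 5 in nondraining lymph nodes, beside 212, 234, 146 and 126 of all genes. In alternative fits, 170 depletions over the 4 groups were called with the deposited values without centring, 1 with the lymph nodes and the other organs in 1 fit, and 3 with only the groups compared. Without centring, 2015 to 2059 of the 2078 genes were depleted in each of these groups, so the 170 reflect nearly the whole library. The 1 and the 3 were in draining lymph nodes IgG, beside 55 and 107 of all genes.

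Of the 420 sgRNA values of the 7 depleted genes in the 12 lymph node libraries, 381 (90.7%) were at the shared lowest value, as were 71.8% of all sgRNA values and 72.1% of the nontargeting values there. The changes of the 7 genes ranged from −2.65 for *Slc35a1* to −0.12 for *Nans* in draining lymph nodes IgG and from −2.66 for *Gne* to −0.57 for *C1galt1* in draining lymph nodes anti-PD-1. In nondraining lymph nodes they ranged from −2.08 to −1.22 under IgG and from −2.43 to −1.13 under anti-PD-1. *Slc35a1* was below every T0 library in 12 of 12, whereas *C1galt1* was above every T0 library in 2. All 60 sgRNA values of *Slc35a1* there were at the shared lowest value, so its position follows from that value and the centring. For *C1galt1* it was 51 of 60. With a median SE of 0.95 and a lowest adjusted p of 0.279, changes as large as those of the 7 genes were not detectable in these libraries. Between anti-PD-1 and IgG over both lymph node sites, limma called 0 of the 44 genes and 0.0481% of all genes. At an unadjusted p under 0.05 there were 5 of the 44 genes and 237 of all genes.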

How the data were processed

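Reads were counted by the authors with MAGeCK (named in the submitters' processing notes), scaled to the 250 nontargeting sgRNAs and corrected for batches between organs with ComBat. The deposited signal per sgRNA is therefore no longer whole counts, the read depth is unknown, and no count test or counting interval was used. The settings of ComBat are not given in the sources used here.

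From the deposited signal, log2(value + 1) was taken, and a gene value is the mean of its 5 sgRNAs less the mean of the library's nontargeting sgRNAs, without a filter on low values. limma 3.58.1 in R 4.3.3 fitted 29 libraries outside the lymph nodes, with a mean for each group and 15.5 prior degrees of freedom, and 15 libraries (T0 and lymph nodes) in a fit of its own. The study's own statistics were not rerun. Figures were drawn with matplotlib 3.10.9 in Python 3.11.15. The fit was also run on simulated data with independent normal noise. Those data had no shared lowest values, so the run cannot show how the fit handles them. All 44 symbols matched the RefSeq gene table.

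The genes, the pathway list and the comparisons were chosen with earlier results of these data known. A further gene of the pathway list is not reported here and is left out of its counts and median. Named are the genes called in the mean over the 10 groups or in a single group, at least 5 in each direction, and the genes of sialic acid supply, core 1, *Gcnt1*, *St3gal1*, *St3gal4*, *St6gal1* and *St8sia4*. *Cmas* sgRNA s_00667 was singled out after its values were seen. Alternatives were log2(value + 10), the nontargeting median as reference, no centring, the median of sgRNAs, the lowest 10% of sgRNAs in T0 left out, shared lowest values set to 0, the replicate number as a block, all libraries in 1 fit, only the groups compared, and each library or replicate number left out. Added after seeing the data were the F-test without liver or within a treatment, the liver contrast, *Cmas* without s_00667, and each library left out from results that span groups.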

Additional observations from a re-analysis of the deposited data

Results flagged for a closer look

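The change from T0 differed between the 5 organs outside the lymph nodes by the F-test for *C1galt1c1* (adjusted p = 0.00100), *C1galt1* (0.00274), *Nans* (0.0144) and *Slc35a1* (0.0207). None of the 4 passed without the liver. The F statistic then went from 14.7 to 4.45 for *C1galt1c1* and from 11.3 to 3.27 for *C1galt1*. For *Nans* it went from 8.91 to 7.42 (adjusted p = 0.0863) and for *Slc35a1* from 8.32 to 8.14 (0.0689). The F-test without the liver spans fewer differences between organs and fewer libraries, so its statistics are not on the same scale.

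*St3gal4* differed between anti-PD-1 and IgG in the mean over 5 organs by 1.13 on the log2 scale. *Slc35a1* differed between the treatments in the lung by −2.08, where all its anti-PD-1 sgRNA values were at the shared lowest value.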

How the results depend on the processing

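The mean over the 10 groups gave 7 depleted genes, but 14 without centring and 3 with the median of sgRNAs (6 to 7 with libraries or replicate numbers left out), and 0 enriched in every fit. Depletions summed over these groups were 56, but 110 without centring and 29 with the median of sgRNAs (49 to 57 with libraries left out). Over all genes, 199 to 357 were depleted per group, but 316 to 1533 without centring and 90 to 314 with the median of sgRNAs. The 1 enrichment became 0 with the nontargeting median, without centring, with the median of sgRNAs and with all libraries in 1 fit, and 15 with only the groups compared (0 to 2 with libraries left out). With only the groups compared, liver anti-PD-1 was a single library set against T0. Most of the enrichments of that fit came from it, and many other genes of the library were enriched there too. Lymph node depletions were 0, but 170 without centring, 1 with all libraries in 1 fit and 3 with only the groups compared (0 to 0 with libraries left out). Beside the 170, 2015 to 2059 of all genes were depleted in each lymph node group. The median change of all genes was −0.14, but −0.55 with the nontargeting median and −1.14 without centring, where 671 genes were depleted in place of 334. With the median of sgRNAs, 244 of all genes were depleted in the mean over the 10 groups.

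Between treatments over 5 organs, the 1 call became 0 with the nontargeting median, without centring, with the median of sgRNAs, with all libraries in 1 fit and with only the groups compared (0 to 2 with libraries left out). By organ, the 1 call became 0 in these 5 fits and with the lowest 10% of sgRNAs left out, and 2 with the replicate block (0 to 3 with libraries left out). The 4 calls between organs became 9 without centring, 1 with the median of sgRNAs, 1 with all libraries in 1 fit, and 0 without liver, with IgG libraries only and with anti-PD-1 libraries only (0 to 5 with libraries left out, 0 without replicate number 3, which leaves liver anti-PD-1 without a library).

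Genes that were not called changed sign. Without centring, *Galnt13* was at −0.62, *Galnt5* at −0.63, *St3gal4* at −0.52, *St3gal5* at −0.55 and *St6galnac1* at −0.56. With the nontargeting median *Galnt13* was at −0.0284 and *Galnt5* at −0.0378, and with the median of sgRNAs *Galnt5* was at −0.0428 and *St3gal5* at −0.11. *Gcnt1* was at 0.0185 with the replicate block. With replicate numbers left out in turn, *Gcnt1* ranged from −0.177 to 0.0367 and *St6gal1* from −0.0935 to 0.0748. In the liver without centring, *C1galt1* was at −0.76 under IgG and −0.47 under anti-PD-1 and *St3gal1* at −0.81 under anti-PD-1. *C1galt1* under liver IgG ranged from −0.30 to 1.05 with single libraries left out.

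In the batch-corrected values, libraries of the same replicate number did not vary together. Deviations of same-numbered libraries correlated at −0.36 to 0.15 with T0 (33 pairs, 2 over 0.1) and at −0.11 to 0.00465 between IgG and anti-PD-1 (15 pairs, 0 over 0.1). Batch correction with settings not given can remove such correlation, so these values cannot show whether the libraries were paired before it. With the replicate block, 7 genes were depleted in the mean over the 10 groups, 4 were called between organs and 1 between treatments.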
